A study of Mus musculus with 18 samples.

Results

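The genes described here are 50 mouse genes of the machinery that starts signalling at the T-cell receptor: the CD3 and Fc receptor chains, the first kinases, the adaptors, the enzymes these adaptors recruit, the phosphatases and other brakes, the calcium and NFAT branch, and 3 surface molecules that tune the signal. They were chosen by name, from the known parts of the pathway. All 50 were found among the 38392 rows of the deposited table, and 48 passed a minimum of 10 normalised counts in at least 3 of 18 libraries, as did 15472 rows in all. The 2 members that did not pass were Fcer1g and Syk.

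The T-cell receptor has no enzyme of its own. When it binds its ligand, the Src-family kinase Lck phosphorylates the cytoplasmic tails of the CD3 and zeta chains, Zap70 docks there, and Zap70 phosphorylates the scaffolds Lat and SLP-76 (encoded by Lcp2), which gather phospholipase C gamma, Ras activators and Vav. Calcium entry through the Stim1 and Orai1 pair then activates calcineurin and NFAT, while phosphatases, ubiquitin ligases and diacylglycerol kinases hold the signal down. In the gut, CD4 T cells can turn into Foxp3+ regulatory cells or, mainly in the epithelium, into CD4+CD8α+ intraepithelial cells, and the strength of the receptor signal is known to matter for the choice of regulatory fate.

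The donor cells were CD4+CD8α- Foxp3-GFP- T cells from C57BL/6 TNa TNb RAG1-/- Foxp3GFP mice, a line derived from the nucleus of a regulatory T cell, so that the donor T cells carry a common receptor. They were transferred into C57BL/6 TCRa-/- TCRb-/- hosts, which make no αβ T cells but keep their own γδ T cells and B cells. After 6 weeks, transferred cells were sorted from the small intestine, either from the epithelium (IEL) or from the lamina propria (LP), as CD4+CD8α+ cells (DP), CD4+Foxp3+ cells (TR) or unconverted CD4+CD8α-Foxp3- cells (SP). Each of the 6 groups has 3 libraries. The labels call them biological replicates without naming the animals behind each, so p-values measure the spread between these libraries. In RNA from sorted populations, fewer cells that express a gene and less RNA per cell cannot be told apart.

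Each library held 5093955 to 8851347 reads counted in genes (median 5903164.5). The sort genes matched the labels: Cd8a was at 3364 to 6444 normalised counts in the DP libraries and at most 113 elsewhere, and Foxp3 was at 66.2 to 164 in the TR libraries and at most 39.9 elsewhere. The IEL TR libraries differed more among themselves than those of any other group. Their pairwise correlation was 0.8045 to 0.8727 against 0.9238 to 0.9438 within the other groups, and their median gene SD was 0.5471 on the log2 scale against 0.3048 to 0.3488. IEL TR library 1 stood apart, with Vav1 at 92.5, Sos1 at 3.15 and Ubash3a at 42.0 normalised counts where the other 2 libraries of the group had 797 and 1154, 78.4 and 30.5, and 372 and 705. Comparisons with IEL TR were therefore fitted on the 2 groups compared alone, and all others on the 15 libraries of the other 5 groups. Markers of B and plasma cells summed to 144 to 628 normalised counts in LP TR and 54.6 to 322 in IEL TR against 51.0 to 97.0 in the other groups, while 8 T-cell markers summed to 17959 to 27687 over all groups. That T-cell list includes the member Lck, and its gene Cd28 was at 144 to 238 in IEL DP and 4750 to 5936 in LP SP. The sum therefore does not measure T-cell content apart from the members. A list of 8 innate lymphoid genes, some of which T cells also express, summed to 1168 to 1799 in the TR libraries and 39.9 to 820.15 elsewhere. In the TR libraries most of that sum was Il1rl1 and Nrp1, whereas Il22 and Il23r were at 0 in all 6, and its part in the TR differences was not tested.

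The receptor chains of T cells, the first kinases and the central scaffolds were present at high levels in all 6 groups, and for Lck, Zap70, Lat and Lcp2 these levels were close between groups. Per kilobase of exon, the mean normalised count over the groups was highest for Cd3d (2317), a chain of the receptor complex, and for Lck (2239), followed by Cd3g (1411) and the scaffold Lat (994). Zap70 (376), Cd3e (316) and Lcp2 (312) came lower, below Cd2 (786) and Ptprc (615). The Tec-family kinase gene Tec was lowest of the 48 at 8.64. The alternative chains and kinase used by myeloid and NK cells were near the floor: Fcer1g was at 0 to 24.4 normalised counts, Tyrobp, which encodes DAP12, at 0 to 23.5, and Syk at 0 to 9.74. For scale, 3 reads correspond to 2.06 to 3.73 normalised counts, depending on the library.

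The ratio of the highest to the lowest group mean was 1.205 for Lat, 1.211 for Lck, 1.24 for Zap70 and Lcp2 and 1.265 for Prkcq, the kinase that links the receptor to NF-κB. Lat had 2496, 3677 and 3116 normalised counts in the 3 LP SP libraries and 2328, 3063 and 2317 in LP TR, the groups with the highest and lowest mean, and these ranges overlapped. Lck had 7045, 7767 and 6658 in LP SP and 5984, 6464 and 5286 in LP TR, without overlap. Zap70 had 1211, 1315 and 1304 in LP SP and 1009, 1006 and 1078 in LP DP, with every LP SP library above every LP DP library. None of the 3 genes passed the main limma test in any of the 9 pairwise comparisons, and of them only Lck was called under another setting of the whole analysis (IEL DP minus LP DP 0.60, adjusted p = 0.00204 with quantile normalisation). For LP TR minus LP SP the limma differences on the log2(value + 1) scale were -0.26 ± 0.18, adjusted p = 0.427 for Lat, -0.28 ± 0.11, adjusted p = 0.139 for Lck and -0.25 ± 0.13, adjusted p = 0.278 for Zap70. Over all 48 members the median ratio of highest to lowest group mean was 2.14 (with 1 added to each mean) against 2.01 over all genes, and 16.7% of members against 22.4% of all genes had a ratio under 1.5.

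**Figure D1:**
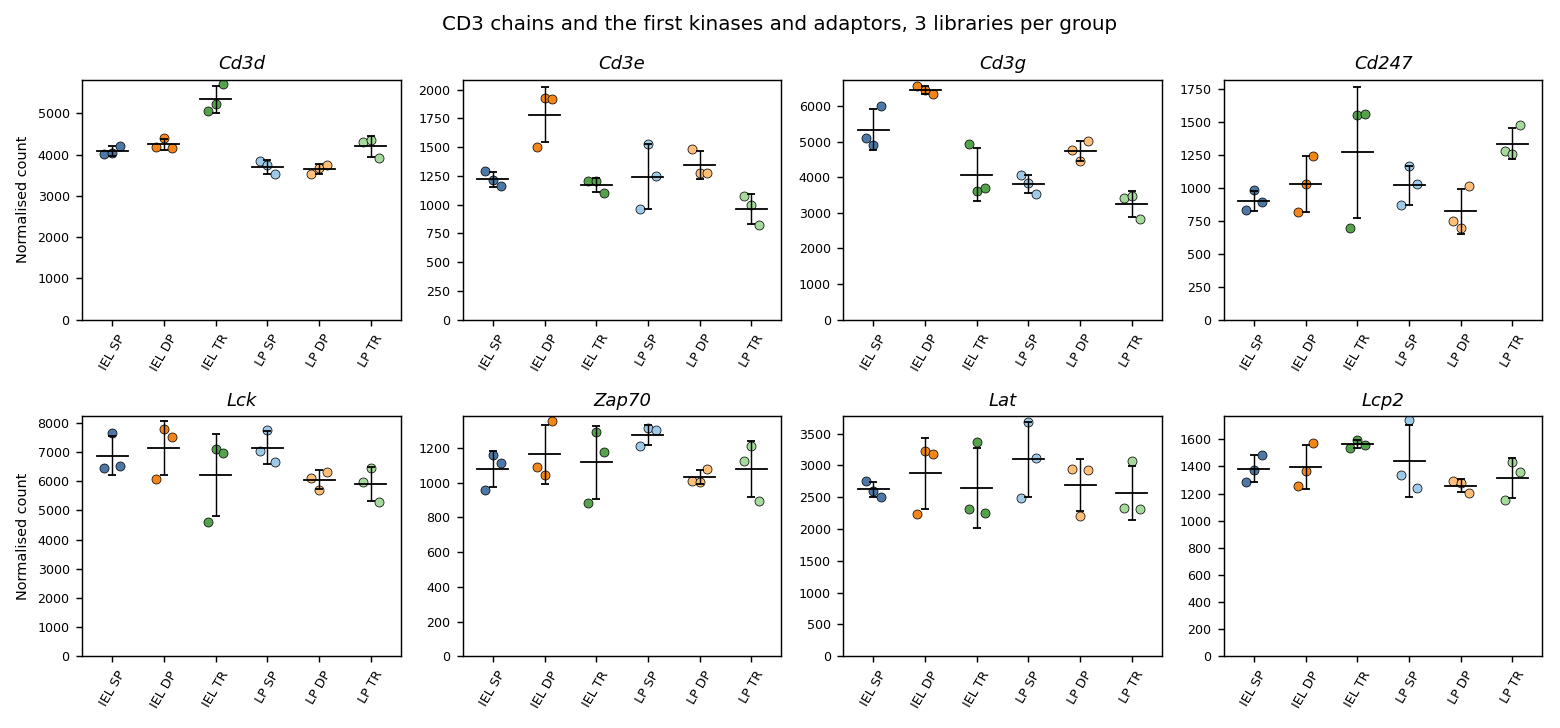
Normalised counts (vertical axes, from 0) of the CD3 chains, Lck, Zap70, Lat and Lcp2 in each library of the 6 groups (horizontal axes), with lines at the group mean and bars of 1 SD. Lck, Zap70, Lat and Lcp2 stay in a narrow band, while Cd3g is highest in IEL DP (6451 on average) and lowest in LP TR (3239) and Cd3d is highest in IEL TR (5337).

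The CD3 gamma and delta chains, which pair with CD3 epsilon in the same receptor, did not follow each other. Their genes lie side by side on chromosome 9 with their starts facing apart, Cd3g at chr9:44969572-44980431 on the minus strand and Cd3d at chr9:44981786-44987339 on the plus strand of GRCm38, with 1354 bases between them. The 250 bases before each start are shown because the pair shares this short stretch of genome and yet differed in level between groups. They are RefSeq sequences for GRCm38.p6, 5′ to 3′ on the strand of the gene, at chr9:44980432-44980681 (minus) and chr9:44981536-44981785 (plus), and capitals mark a match to the GATA-factor letters AGATAA.
Cd3g: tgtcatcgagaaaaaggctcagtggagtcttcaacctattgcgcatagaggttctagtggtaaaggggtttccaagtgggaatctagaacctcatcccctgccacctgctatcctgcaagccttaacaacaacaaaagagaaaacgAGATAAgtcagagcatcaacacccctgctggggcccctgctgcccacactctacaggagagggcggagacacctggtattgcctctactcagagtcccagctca
Cd3d: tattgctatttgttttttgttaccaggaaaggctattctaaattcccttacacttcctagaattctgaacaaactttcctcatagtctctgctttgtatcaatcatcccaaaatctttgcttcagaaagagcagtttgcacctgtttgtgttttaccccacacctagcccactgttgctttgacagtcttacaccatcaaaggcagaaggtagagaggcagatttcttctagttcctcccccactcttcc
The motifs were chosen by name, and 6 were searched on both strands in these windows: the Runx letters TGTGGT, the E-box letters CAGCTG, the NFAT letters GGAAAA, the ETS letters CCGGAA, the GATA-factor letters AGATAA and the letters TATAAA of the TATA box. The Cd3g window held AGATAA, which 10.3% of 27025 gene promoters of the same length hold, and the Cd3d window held none of the 6. Its base composition also differed, with 41.2% G and C and 0 CpG pairs against 51.6% and 4 for Cd3g, where the median promoter has 52.0% and 6.

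Cd3g was at 6559.92, 6448 and 6344 normalised counts in IEL DP, 5096, 4922 and 6003 in IEL SP, 4777, 4457 and 5013 in LP DP and 4061, 3833 and 3536 in LP SP. It was at 4931, 3610.46 and 3690.24 in IEL TR and 3418, 3481 and 2817 in LP TR. Every LP TR library lay below every LP DP library, every IEL SP library lay above every LP SP library, and every IEL DP library above every LP DP library. Cd3g was higher in LP DP than in LP TR (LP DP minus LP TR 0.56 ± 0.097, adjusted p = 0.00154 by limma), in IEL SP than in LP SP (0.48 ± 0.097, adjusted p = 0.00595) and in IEL DP than in LP DP (0.44 ± 0.097, adjusted p = 0.0114). The last of these calls was lost without library 2 of LP DP (adjusted p 0.0527).

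Cd3d had higher values in Foxp3+ than in unconverted cells and passed the main limma test at neither site. It was at 5068, 5238 and 5707 in IEL TR against 4011, 4031 and 4216 in IEL SP, with no overlap, and at 4313, 4366 and 3918 in LP TR against 3841, 3745 and 3522 in LP SP, again with no overlap. The limma differences were 0.38 ± 0.082, adjusted p = 0.0729 in the epithelium and 0.18 ± 0.068, adjusted p = 0.122 in the lamina propria. DESeq2 called Cd3d at both sites (adjusted p = 0.00287 and 0.0441), and limma called it in the epithelium when all 18 libraries shared 1 variance (adjusted p = 0.00173). The count of Cd3g divided by that of Cd3d in the same library, which does not depend on the scaling of libraries, was 1.46 to 1.57 in IEL DP, 1.22 to 1.42 in IEL SP, 1.21 to 1.36 in LP DP, 1.00 to 1.06 in LP SP, 0.719 to 0.797 in LP TR and 0.647 to 0.973 in IEL TR. All 6 TR libraries were below all 12 others. This ratio was chosen after the values were seen, and with 3 libraries against 3 an exact permutation test cannot go below 0.1, so it is given without a test. Of 4 γδ T-cell genes in the table, Sox13 was at 0 in 17 of 18 libraries, Tcrg-C1 and Tcrg-C2 were at most 50.8 and 33.1, and Tcrg-C4 made up most of the sum. That sum moved with the ratio: it was 1.08 to 8.70 in the TR libraries, 1316 to 1776 in IEL DP, 700 to 887 in IEL SP and 670 to 731 in LP DP, with LP SP between at 165 to 274. Its part in the Cd3g values was not tested.

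Cd3e was at 1505, 1931 and 1917 in IEL DP and 1075, 996 and 819 in LP TR, its highest and lowest groups, and passed in no comparison by limma as fitted here (LP DP minus LP TR 0.49 ± 0.16, adjusted p = 0.064). DESeq2 called it higher in LP DP than in LP TR (adjusted p = 0.0312) and in IEL DP than in IEL TR (adjusted p = 0.000743), and limma called the first also with quantile normalisation (0.0293), TMM factors (0.0474) or a minimum of 50 (0.0495). Cd247, which encodes the zeta chain, was at 1274, 1255 and 1471 in LP TR and 749, 695 and 1015 in LP DP, without overlap, and was lower in LP DP (-0.72 ± 0.17, adjusted p = 0.0133). That call was lost without library 1 or 2 of LP DP, or library 3 of LP TR (adjusted p 0.0529 to 0.0604). In the annotation 60.3% of the exon bases of Cd247 also lie in exons of other genes, and the library kit does not mark strand. Reads from these bases cannot be told apart by gene, and their effect on the count was not tested.

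Over the 9 pairwise comparisons, 26 of the 48 members passed the limma test (adjusted p under 0.05 over all 15472 genes) in at least 1, and 22 passed in none. Most of the calls set LP TR apart from the other LP groups or the epithelium apart from the lamina propria. In LP TR against LP SP, 3 members were higher and 9 lower, which is 25% of members against 9.5% of all genes (5.03% higher and 4.47% lower). In LP DP against LP TR, which shares the LP TR libraries with the first, 11 were higher and 8 lower, or 39.6% of members against 13.2% of all genes (5.42% higher and 7.76% lower). In IEL SP against LP SP, 3 were higher and 9 lower, or 25% of members against 9.91% of all genes (4.25% higher and 5.66% lower). In IEL DP against LP DP, 1 was higher and 3 lower, or 8.33% of members against 9.51% of all genes (4.1% higher and 5.42% lower), a share near the background. The median log2 difference over the 48 members lay on either side of that over all genes. It was below it at -0.19 against -0.006 in LP TR minus LP SP, -0.043 against 0.006 in LP DP minus LP TR and -0.086 against 0.025 in IEL SP minus LP SP. It was also below at -0.23 against -0.008 in LP DP minus LP SP, and above at 0.151 against 0.052 in IEL DP minus LP DP.

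**Figure D2:**
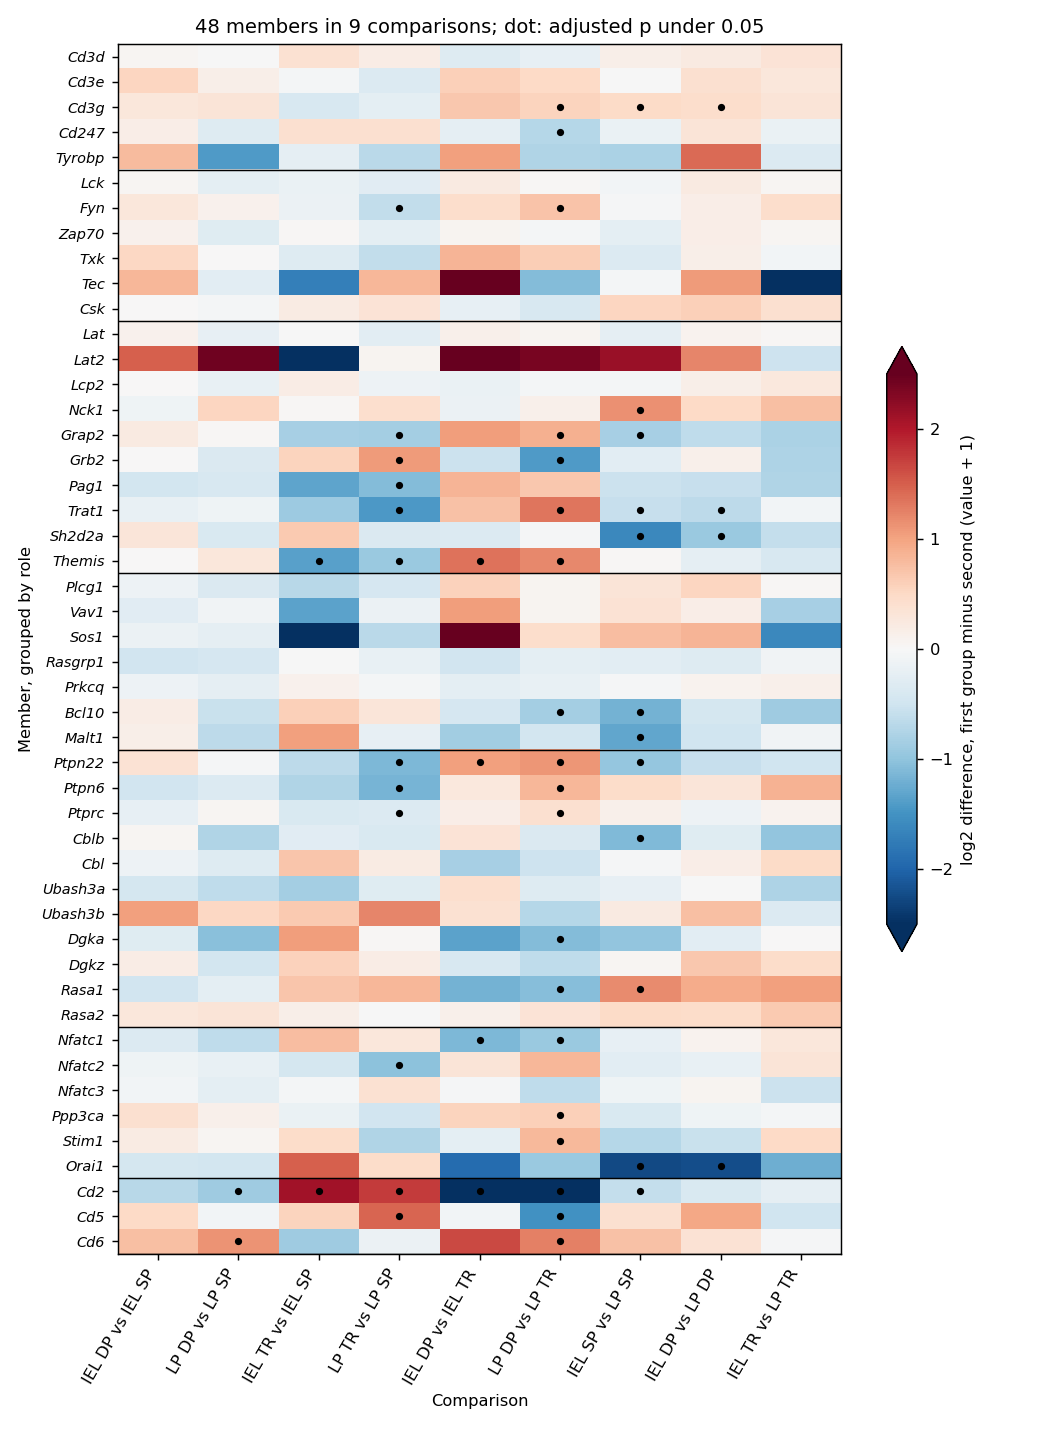
Log2 differences of value + 1 (colour, first group minus second) for the 48 members, grouped by role (rows), in the 9 pairwise comparisons (columns), with a dot where the adjusted p is under 0.05. The dots gather in the columns of LP TR against LP SP, LP DP against LP TR and IEL SP against LP SP, the row of Cd2 has 6 of them, and the rows of Lck, Zap70 and Lat have none.

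Lamina propria Foxp3+ cells differed from unconverted cells most in the surface molecules Cd2 and Cd5, which rose, and in a set of adaptors and phosphatases, which mostly fell. Cd2, an adhesion molecule that binds CD48 and adds to receptor signalling, had 2887, 3520.45 and 2917 normalised counts in LP TR and 818, 1018 and 955 in LP SP. The groups were far apart, with a difference of 1.74 ± 0.16, adjusted p = 1.07e-05 by limma, or 3.34-fold on the value + 1 scale. Cd5, a receptor that dampens the signal and whose level is known to follow its strength, had 278, 328 and 472 in LP TR and 141, 115 and 129.81 in LP SP (1.45 ± 0.33, adjusted p = 0.0135). Cd5 is also made by some B cells, the summed B-cell markers were 144, 628 and 166 in the same LP TR libraries against 53.9 to 78.4 in LP SP, and their part in the difference was not tested. The call of Cd5 was lost without library 3 of LP TR (adjusted p 0.0587). Cd6, a relative of Cd5 next to it on chromosome 19, had 362, 378 and 354 in LP TR and 359, 349 and 529.68 in LP SP, which overlapped.

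Of the 10 adaptors, 1 rose and 4 fell in LP TR. Grb2, which brings the Ras activator Sos1 to phosphorylated Lat, was the adaptor that rose, from 357, 541 and 333 in LP SP to 955, 787 and 773 in LP TR (1.06 ± 0.19, adjusted p = 0.00294 by limma). Trat1, which encodes the transmembrane adaptor TRIM of the receptor complex, fell from 2335, 2233 and 1768 to 799, 897 and 643 (-1.44 ± 0.16, adjusted p = 7.86e-05), or 2.71-fold. Themis, an adaptor needed for thymic selection that works with Grb2 and Ptpn6, fell from 1064, 946 and 801 to 527, 418 and 537 (-0.92 ± 0.16, adjusted p = 0.00228). None of these 3 pairs of groups overlapped. Pag1, the membrane anchor of the inhibitory kinase Csk, fell from 425, 339 and 571 to 181, 282 and 167 (-1.09 ± 0.24, adjusted p = 0.0103). Grap2, the partner of SLP-76 known as GADS, fell from 453, 462 and 444 to 356, 226 and 194 (-0.86 ± 0.23, adjusted p = 0.0271). The call of Grap2 was lost without library 1, 2 or 3 of LP SP, or library 2 or 3 of LP TR (adjusted p 0.0656 to 0.108).

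Of the 11 phosphatases, ubiquitin ligases and other brakes, 3 fell and none rose in LP TR. Ptpn22, a phosphatase that switches off Lck and Zap70, fell from 2069, 2580.2 and 2192 to 963, 1161 and 992 (-1.13 ± 0.17, adjusted p = 0.000892 by limma), or 2.19-fold, with a wide gap between the groups. Ptpn6, which encodes SHP-1, fell from 653, 1027 and 1102 to 448, 296 and 497 (-1.16 ± 0.21, adjusted p = 0.0034). Ptprc, which encodes the phosphatase CD45 that activates Lck, fell from 13529, 11562 and 10604 to 9934, 9797 and 8312 (-0.34 ± 0.10, adjusted p = 0.0444), and its call was lost without library 1, 2 or 3 of IEL SP, library 1 or 2 of IEL DP, library 1 or 2 of LP SP, library 2 of LP DP, or library 1, 2 or 3 of LP TR (adjusted p 0.0521 to 0.163). Of the 6 kinases, 1 fell: Fyn, the second Src-family kinase of T cells, from 1211, 1044 and 1107 to 709.61, 801 and 687 (-0.61 ± 0.090, adjusted p = 0.000601). In the calcium and NFAT group the transcription factor Nfatc2 fell from 293, 402 and 604 to 193, 255 and 172 (-1.02 ± 0.29, adjusted p = 0.0376), a call lost without library 1 of IEL SP, library 2 of IEL DP, library 2 or 3 of LP SP, or library 1 or 3 of LP TR (adjusted p 0.05 to 0.154). None of the 7 enzymes and exchange factors downstream of Lat passed.

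The stretches before the starts of Themis, Trat1 and Ptpn22 are shown because these 3 genes were called lower in LP TR than in both other LP groups under every processing alternative. Fyn met the same rule and is not shown. They are RefSeq sequences for GRCm38.p6, 5′ to 3′ on the strand of the gene, at chr10:28668110-28668359 (plus, gene at chr10:28668360-28883818), chr16:48772063-48772312 (minus, gene at chr16:48730774-48772021) and chr3:103859545-103859794 (plus, gene at chr3:103859795-103912247). Capitals mark matches to the 6 motifs on either strand.
Themis: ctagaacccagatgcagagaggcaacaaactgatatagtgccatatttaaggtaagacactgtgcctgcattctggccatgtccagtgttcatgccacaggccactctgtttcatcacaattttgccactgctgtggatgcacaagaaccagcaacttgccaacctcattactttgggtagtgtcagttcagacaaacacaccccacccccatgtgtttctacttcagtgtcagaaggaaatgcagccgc
Trat1: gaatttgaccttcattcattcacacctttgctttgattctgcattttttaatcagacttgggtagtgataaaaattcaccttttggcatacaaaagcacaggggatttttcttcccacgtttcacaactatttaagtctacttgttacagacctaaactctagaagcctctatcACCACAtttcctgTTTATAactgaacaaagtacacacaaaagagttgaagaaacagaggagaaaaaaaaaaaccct
Ptpn22: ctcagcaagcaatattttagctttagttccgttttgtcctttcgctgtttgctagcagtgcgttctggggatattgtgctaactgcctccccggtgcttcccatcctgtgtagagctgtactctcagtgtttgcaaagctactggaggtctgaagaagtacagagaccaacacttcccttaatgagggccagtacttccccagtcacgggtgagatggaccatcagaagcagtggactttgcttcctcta
The Trat1 stretch held the Runx letters TGTGGT on the opposite strand and the TATA box letters TATAAA, also on the opposite strand, which 14.2% and 13.0% of all 27025 promoters hold. The stretches of Themis and Ptpn22 held none of the 6 motifs. Among the 39 members matched in the promoter table, 4 held the Runx letters, 10 the NFAT letters GGAAAA (20.6% of all promoters), 5 the ETS letters CCGGAA (12.2%) and 2 the E-box letters CAGCTG (12.8%).

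Other genes of the pathway also moved both ways in LP TR against LP SP. They come from lists of 45 activating and 26 restraining genes that passed the minimum and are no members. Of the activating genes 3 were higher and 6 lower, and of the restraining genes 4 were higher and 4 lower. Among the activating genes that fell were the kinase subunit gene Pik3cd (-1.47 ± 0.24, adjusted p = 0.00128 by limma) and the calcineurin subunit gene Ppp3cc (-2.22 ± 0.41, adjusted p = 0.00343). Of restraining genes, Cabin1, an inhibitor of calcineurin (-1.48 ± 0.25, adjusted p = 0.00203), and the adaptor gene Lax1 (-1.39 ± 0.26, adjusted p = 0.00417) fell. Itpkb (0.73 ± 0.17, adjusted p = 0.012) and Dok1 (1.43 ± 0.35, adjusted p = 0.0182) rose.

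Lamina propria CD4+CD8α+ cells differed from Foxp3+ cells at 19 members, the most of any comparison in the main fits. LP TR is in both this and the preceding comparison, so their calls are not independent of each other. Against LP TR, LP DP were higher in Trat1, Themis, Ptpn22, Grap2 and Ptpn6 and lower in Cd2, Cd5 and Grb2. LP DP had 435, 462 and 623 normalised counts of Cd2, below all 3 LP TR libraries by 6.17-fold on average (-2.63 ± 0.16, adjusted p = 1.38e-07 by limma). Cd5 was at 136, 133 and 99.8 in LP DP (-1.52 ± 0.33, adjusted p = 0.00738). Grb2 was at 273, 369 and 298 (-1.42 ± 0.19, adjusted p = 0.000193). None of these overlapped the LP TR libraries. Trat1 was at 1938, 1989 and 1928 (1.34 ± 0.16, adjusted p = 9.73e-05). Themis was at 1129, 894 and 1428 (1.201 ± 0.16, adjusted p = 0.000186). Ptpn22 was at 2688, 1983 and 2027 (1.09 ± 0.17, adjusted p = 0.000754). In these 3 genes every LP DP library lay above every LP TR library.

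Cd6 was higher in LP DP, at 1141, 649.83 and 918 against 362, 378 and 354 in LP TR (1.27 ± 0.22, adjusted p = 0.0014 by limma), so the neighbouring genes Cd5 and Cd6 differed in opposite directions between these groups. Nfatc1, an NFAT factor that T cells induce after stimulation, was lower in LP DP, at 350.48, 294 and 412 against 747, 599 and 645 in LP TR (-0.92 ± 0.19, adjusted p = 0.00431). Bcl10, part of the complex that turns the signal to NF-κB, was at 803, 591 and 821 in LP DP and 1151, 1459.91 and 1362 in LP TR (-0.85 ± 0.21, adjusted p = 0.0163). In these 3 genes the groups did not overlap. The calls of Bcl10, Grap2 (0.88 ± 0.23) and Ptpn6 (0.82 ± 0.21) depended on single libraries. Bcl10 was lost without library 2 of LP DP, or library 2 of LP TR (adjusted p 0.0653 to 0.0732). Grap2 was lost without library 1 or 3 of LP DP, or library 2 or 3 of LP TR (adjusted p 0.0543 to 0.078), and Ptpn6 without library 1 or 2 of LP DP, or library 2 of LP TR (adjusted p 0.0542 to 0.0872).

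The brakes Dgka, a diacylglycerol kinase, and Rasa1, which inactivates Ras, were lower in LP DP. Dgka was at 381, 485 and 515 in LP DP and 901, 1239 and 808 in LP TR (-1.08 ± 0.33, adjusted p = 0.0456 by limma). Rasa1 was at 226, 137 and 253 in LP DP and 379.68, 458 and 422 in LP TR (-1.07 ± 0.30, adjusted p = 0.0307). Stim1, the calcium sensor of the endoplasmic reticulum, was higher, at 212, 199.62 and 143 in LP DP against 120.07, 90.8 and 103 in LP TR (0.80 ± 0.25, adjusted p = 0.0465). The groups did not overlap in any of the 3, yet Dgka was lost without library 1 or 2 of IEL SP, library 2 of IEL DP, library 3 of LP SP, library 1, 2 or 3 of LP DP, or library 1, 2 or 3 of LP TR (adjusted p 0.0535 to 0.165). Rasa1 was lost without library 1 or 2 of LP DP, or library 1, 2 or 3 of LP TR (adjusted p 0.051 to 0.131) and Stim1 without library 1, 2 or 3 of IEL SP, library 3 of IEL DP, library 3 of LP SP, library 1 or 2 of LP DP, or library 1, 2 or 3 of LP TR (adjusted p 0.0539 to 0.155). The remaining called members were Fyn (0.71 ± 0.090, adjusted p = 0.000117), the calcineurin catalytic subunit gene Ppp3ca (0.60 ± 0.14, adjusted p = 0.0119) and Ptprc (0.39 ± 0.10, adjusted p = 0.0173), all higher in LP DP and named after their values were seen. Ppp3ca was lost without library 3 of LP TR (adjusted p 0.0533) and Ptprc without library 1 or 2 of LP DP, or library 3 of LP TR (adjusted p 0.0517 to 0.0787). Without LP DP library 2 the count of called members was 12.

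In the other pathway lists, 5 activating genes were higher and 3 lower in LP DP than in LP TR, and 4 restraining genes were higher and 5 lower. The activating genes with the smallest p were Grap, a Grb2 relative (-1.06 ± 0.14, adjusted p = 0.000204 by limma), the exchange factor gene Vav2 (-2.10 ± 0.35, adjusted p = 0.001), Pik3cd (1.33 ± 0.24, adjusted p = 0.00176) and Ppp3cc (2.12 ± 0.41, adjusted p = 0.0031). The restraining genes were Sla, which lowers receptor level (-1.64 ± 0.26, adjusted p = 0.000672), Cabin1 (1.57 ± 0.25, adjusted p = 0.000836), Lax1 (1.48 ± 0.26, adjusted p = 0.0018) and the phosphatase gene Ptpn7 (-1.44 ± 0.28, adjusted p = 0.00372). Grap and Grb2 were both lower in LP DP, while Grap2 was higher.

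Few members passed between CD4+CD8α+ and unconverted cells of the same site. In lamina propria cells, 1 member was higher and 1 lower in LP DP, or 4.17% of members, where 0.769% of all genes were called (0.252% higher and 0.517% lower). Cd6, which binds CD166 on other cells, was at 1141, 649.83 and 918 in LP DP and 359, 349 and 529.68 in LP SP (1.12 ± 0.22, adjusted p = 0.0312 by limma). Cd2 was at 435, 462 and 623 in LP DP and 818, 1018 and 955 in LP SP (-0.89 ± 0.16, adjusted p = 0.018). The groups did not overlap in either gene, but Cd6 was lost without library 1 or 2 of LP SP, or library 1 or 3 of LP DP (adjusted p 0.101 to 0.126) and Cd2 without library 2 or 3 of LP SP, or library 1 or 2 of LP DP (adjusted p 0.0681 to 0.077).

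In the epithelium no member passed in IEL DP against IEL SP by limma, and 0.213% of all genes were called (0.0452% higher and 0.168% lower). At an unadjusted p under 0.05 there were 9 of the 48 members, against 6.58% of all genes. edgeR also called 0, and DESeq2 called 1, Cd2, at -0.70 and adjusted p = 0.00662. Cd2 was at 412, 333 and 407 in IEL DP and 689, 631 and 539.59 in IEL SP, without overlap (-0.69 ± 0.16, adjusted p = 0.164 by limma). Cd6 was at 1118, 1144 and 1144 in IEL DP and 881, 536 and 636 in IEL SP, again without overlap (0.76 ± 0.22, adjusted p = 0.365). Cd3e (0.54 ± 0.16, adjusted p = 0.414) and Fyn (0.28 ± 0.090, adjusted p = 0.463) were also among the 9. Of the 71 other pathway genes limma called 0 in either comparison. At an unadjusted p under 0.05 there were 2 in the epithelium and 12 in the lamina propria, against 6.58% and 9.95% of all genes.

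Epithelial Foxp3+ cells gave fewer calls in the main fits, which are not alike. This comparison used 6 libraries and that of the lamina propria 15, with a median SE over all genes of 0.423 against 0.322. Fitted on its own groups alone, LP TR against LP SP lost the calls of Grap2, Pag1, Ptpn6, Ptprc and Nfatc2. The counts of the 2 sites are therefore not like for like. In IEL TR against IEL SP, 1 member was higher and 1 lower, or 4.17% of members against 2.91% of all genes (1.49% higher and 1.42% lower), a share near the background. Cd2 was at 2522, 2303 and 3158 in IEL TR and 689, 631 and 539.59 in IEL SP (2.09 ± 0.17, adjusted p = 0.00518 by limma). Themis was at 380.31, 305 and 449 in IEL TR and 951, 929.5 and 976 in IEL SP (-1.35 ± 0.18, adjusted p = 0.021). Neither gene overlapped between the groups. Both had also been called in the same direction in the lamina propria, which shares no library with this comparison: these 2 genes were 100% of the epithelial calls and 16.7% of the 12 lamina propria calls. The labels do not say whether the libraries of the 2 sites came from the same animals. Because all 18 libraries were most like those of their own number, the 2 comparisons cannot be taken as independent. The call of Themis was lost without library 1, 2 or 3 of IEL SP (adjusted p 0.112 to 0.115) and that of Cd2 without library 2 of IEL SP (adjusted p 0.0521). With a block for the library number in the limma fit, both calls were lost (adjusted p 0.0912 for Themis and 0.0604 for Cd2). Without IEL TR library 1 the number of called members was 5.

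Trat1, Ptpn22 and Pag1, which fell in LP TR, had lower values in IEL TR as well and did not pass the main limma test there. Trat1 was at 949, 814 and 525 in IEL TR and 1109.54, 1786 and 1376 in IEL SP (-0.92 ± 0.28, adjusted p = 0.175 by limma). Ptpn22 was at 691, 779.56 and 739.79 in IEL TR and 962, 1246 and 1295 in IEL SP (-0.65 ± 0.16, adjusted p = 0.0963). Pag1 was at 85.1, 170.49 and 121 in IEL TR and 300.42, 318 and 286 in IEL SP (-1.31 ± 0.30, adjusted p = 0.0868). In each of these 3 genes all IEL TR libraries lay below all IEL SP libraries. DESeq2 called Trat1 (adjusted p = 0.0313), Ptpn22 (0.00262) and Pag1 (0.00228) there, as did limma with all 18 libraries sharing 1 variance (0.00947, 0.0208 and 0.00618). DESeq2 also called Ptprc lower in IEL TR and Cd3d, Sh2d2a, Cbl, Grb2 (adjusted p = 0.0414), Nfatc1 (0.0011) and Orai1 (0.0263) higher. Fyn, which fell in LP TR, was at 1376, 723 and 965 in IEL TR and 1080, 1107 and 1107 in IEL SP, which overlapped. Of the other pathway genes, Grap was the only call, averaging 2528 in IEL TR and 1312 in IEL SP (0.93 ± 0.15, adjusted p = 0.0359).

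**Figure D3:**
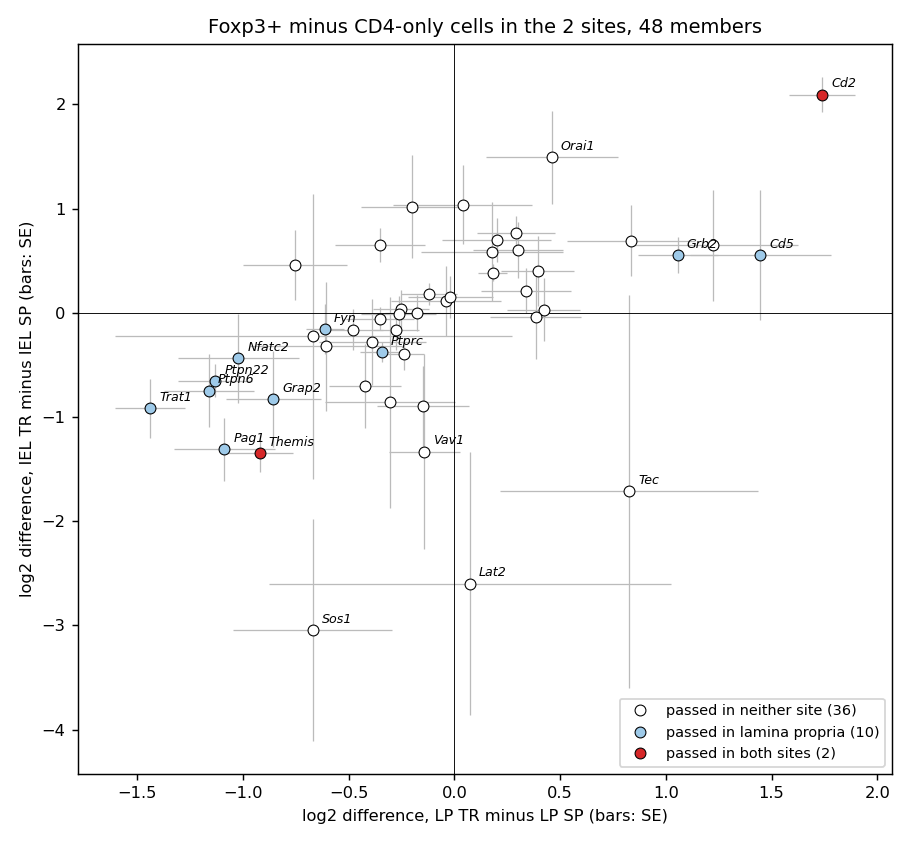
Log2 differences of value + 1 between TR and SP cells for the 48 members, in the lamina propria (horizontal axis) and in the epithelium (vertical axis), with bars of 1 standard error and colour for the sites in which a member passed the test. Cd2 lies at the upper right (1.74 and 2.09) and Themis at the lower left (-0.92 and -1.35), and the long vertical bars belong to genes such as Sos1 and Tec whose IEL TR libraries differ widely.

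In IEL DP against IEL TR, 2 members were higher and 2 lower, or 8.33% of members against 4.14% of all genes (1.78% higher and 2.36% lower). Themis was higher in IEL DP, at 995, 955 and 935 (1.36 ± 0.18, adjusted p = 0.0156 by limma), and so was Ptpn22, at 1155, 1703 and 1684 (1.02 ± 0.18, adjusted p = 0.0416). Cd2 (-2.78 ± 0.17, adjusted p = 0.0017) was lower, and so was Nfatc1, at 401, 409.58 and 307 in IEL DP and 804, 901 and 708 in IEL TR (-1.11 ± 0.18, adjusted p = 0.0311). All 4 had the same direction and a call in LP DP against LP TR, where they made up 21.1% of 19 calls. The call of Cd2 held without any 1 library. Themis was lost without library 1, 2 or 3 of IEL DP (adjusted p 0.0871 to 0.0938), Ptpn22 without library 2 or 3 of IEL DP, or library 1, 2 or 3 of IEL TR (adjusted p 0.0657 to 0.173) and Nfatc1 without library 1, 2 or 3 of IEL DP, or library 2 or 3 of IEL TR (adjusted p 0.0526 to 0.117). A block for the library number in the limma fit also ended the calls of Themis (adjusted p 0.0764), Ptpn22 (0.0852) and Nfatc1 (0.0756). The count of called members was 1 without IEL DP library 2 or 3 and 2 without IEL DP library 1 or IEL TR library 2. Under other settings further members were called, in both directions. DESeq2 called Cd3g and Cd6 higher in IEL DP (adjusted p = 0.000411 and 0.000506), as did limma with all 18 libraries sharing 1 variance (0.00137 and 0.00146). Both also called Cd3d and Orai1 lower in IEL DP (DESeq2 adjusted p = 0.0186 and 0.0107, limma 0.00435 and 0.00256). The other pathway genes called, all lower in IEL DP, were Grap (-1.22 ± 0.16, adjusted p = 0.0158), Rhoh (-0.88 ± 0.14, adjusted p = 0.0298) and Rcan3, a calcineurin regulator (-2.63 ± 0.41, adjusted p = 0.0274).

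Between sites, unconverted cells of the epithelium had less of the calcium channel gene Orai1 and of several adaptors and NF-κB branch genes than those of the lamina propria. Orai1, which encodes the pore of the store-operated calcium channel, was at 76.1, 50.04 and 42.4 in IEL SP and 260.1, 278 and 252 in LP SP. The groups were separated by a wide gap, with a difference of -2.25 ± 0.31, adjusted p = 0.000392 by limma, or 4.75-fold. In the CD4+CD8α+ cells it was at 63.0, 43.9 and 23.2 in IEL DP and 212, 149.5 and 217 in LP DP (-2.22 ± 0.31, adjusted p = 0.00051), or 4.65-fold. Both calls held under every processing alternative. Stim1, its partner, was at 93.1, 109.67 and 119 in IEL SP and 138, 243 and 163 in LP SP and did not pass (-0.72 ± 0.25, adjusted p = 0.0868).

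The stretch before Orai1 is shown because the gene had the largest fall between sites among the called members. The gene lies at chr5:123015074-123030456 on the plus strand, and the RefSeq sequence is from GRCm38.p6 (5′ to 3′, plus strand, chr5:123014824-123014994). It is cut where an annotated exon of another gene is met. The 79 bases nearest the Orai1 start are therefore left out and were not searched in this stretch. Capitals mark the E-box letters CAGCTG.
Orai1: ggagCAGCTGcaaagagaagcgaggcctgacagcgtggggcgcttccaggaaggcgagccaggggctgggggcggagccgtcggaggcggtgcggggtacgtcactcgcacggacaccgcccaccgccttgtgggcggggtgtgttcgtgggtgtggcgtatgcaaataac
Its 171 bases held 68.4% G and C and 17 CpG pairs, above the 52.0% and 6 of the median 250-base promoter, and none of the other 5 motifs.

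Of the 10 adaptors, 1 rose and 3 fell in IEL SP relative to LP SP. Sh2d2a, which encodes the Lck-binding adaptor TSAd, was at 644, 606 and 620.19 in IEL SP and 2016, 1959.97 and 1739.73 in LP SP (-1.61 ± 0.21, adjusted p = 0.00026 by limma). Nck1, an adaptor that links the receptor to the actin skeleton, rose, with 803, 717 and 750 in IEL SP and 387, 312 and 326 in LP SP (1.15 ± 0.17, adjusted p = 0.000675). The groups did not overlap in either gene. Grap2 (-0.83 ± 0.23, adjusted p = 0.0332) and Trat1 (-0.58 ± 0.16, adjusted p = 0.0375) fell by less, and the Trat1 libraries overlapped, with IEL SP at 1109.54, 1786 and 1376. Grap2 was lost without library 2 or 3 of IEL SP, or library 1, 2 or 3 of LP SP (adjusted p 0.0516 to 0.132), and Trat1 without library 1 or 3 of IEL SP, or library 1 or 2 of LP SP (adjusted p 0.0999 to 0.151).

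In the NF-κB branch, Bcl10 was at 644, 496 and 323 in IEL SP and 1063, 967 and 1193 in LP SP (-1.19 ± 0.21, adjusted p = 0.00286 by limma). Malt1, the protease that works with it, was at 199, 203 and 243 in IEL SP and 503, 603 and 491 in LP SP (-1.30 ± 0.24, adjusted p = 0.00333). Both genes were lower in every IEL SP library than in any LP SP library. Among the brakes, Ptpn22 was at 962, 1246 and 1295 in IEL SP, below all LP SP libraries (-0.97 ± 0.17, adjusted p = 0.00283). The ubiquitin ligase gene Cblb was at 96.1, 128 and 155 in IEL SP and 326, 209 and 278 in LP SP (-1.10 ± 0.25, adjusted p = 0.0138). Rasa1 was the brake that rose, at 487, 483 and 631 in IEL SP and 187, 182 and 376 in LP SP (1.17 ± 0.30, adjusted p = 0.0259). The ranges of Cblb and Rasa1 did not overlap between the groups. Cd2 was lower in IEL SP than in LP SP (-0.59 ± 0.16, adjusted p = 0.032). Cblb was lost without library 1 of IEL SP, or library 1 of LP SP (adjusted p 0.0566 to 0.064). Rasa1 was lost without library 1, 2 or 3 of IEL SP, or library 1 or 2 of LP SP (adjusted p 0.0521 to 0.0974), and Cd2 without library 2 or 3 of IEL SP, or library 2 or 3 of LP SP (adjusted p 0.0688 to 0.122). In the same libraries, 8 epithelial markers summed to 447 to 631 in IEL SP and 200 to 497 in LP SP. The largest part was Cdh1, which overlapped between the sites, as did Epcam, Lgals4, Vil1 and Cldn7. Fabp2 was at 35.1, 36.2 and 39.9 in IEL SP and 5.86, 0 and 0 in LP SP, and Krt8 and Krt20 did not overlap either. The part of epithelial RNA in these differences was not tested.

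In CD4+CD8α+ cells the site calls were Cd3g, which rose in the epithelium, and Orai1, Sh2d2a and Trat1, which fell. Sh2d2a was at 641, 818 and 871 in IEL DP and 2068, 983 and 1519.98 in LP DP (-0.92 ± 0.21, adjusted p = 0.0151 by limma). Trat1 was at 1194, 1277 and 1239.78 in IEL DP and 1938, 1989 and 1928 in LP DP (-0.66 ± 0.16, adjusted p = 0.0222). Neither gene overlapped between the groups. The 8 epithelial markers summed to 643, 489 and 1218 in IEL DP and 303, 270.13 and 506 in LP DP. Of these, Cdh1 and Epcam overlapped between the sites and the others were higher in every IEL DP library. Fabp2 was at 28.9, 57.9 and 509 in IEL DP and 3.09, 0 and 0 in LP DP. The part of epithelial RNA in these differences was not tested. The same 4 genes were called in the same direction in IEL SP against LP SP, which uses other libraries, as 33.3% of its 12 calls. Whether those libraries came from other animals is not stated by the labels. All 18 libraries were most like those of their own number in other groups, so the 2 comparisons cannot be taken as independent. Sh2d2a was lost without library 1 of IEL DP, or library 1 of LP DP (adjusted p 0.0529 to 0.0619) and Trat1 without library 1, 2 or 3 of IEL DP, or library 1, 2 or 3 of LP DP (adjusted p 0.0512 to 0.0697), and 2 members remained in the count without LP DP library 1 or 2. With totals set equal across libraries 5 members were higher and 3 lower, and with quantile normalisation 4 and 3. The balance of directions at this site thus depends on the scaling, and the shares of all genes called under these scalings are not given here. For IEL SP against LP SP the split of 3 and 9 became 4 and 6, and 5 and 8.

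**Figure D4:**
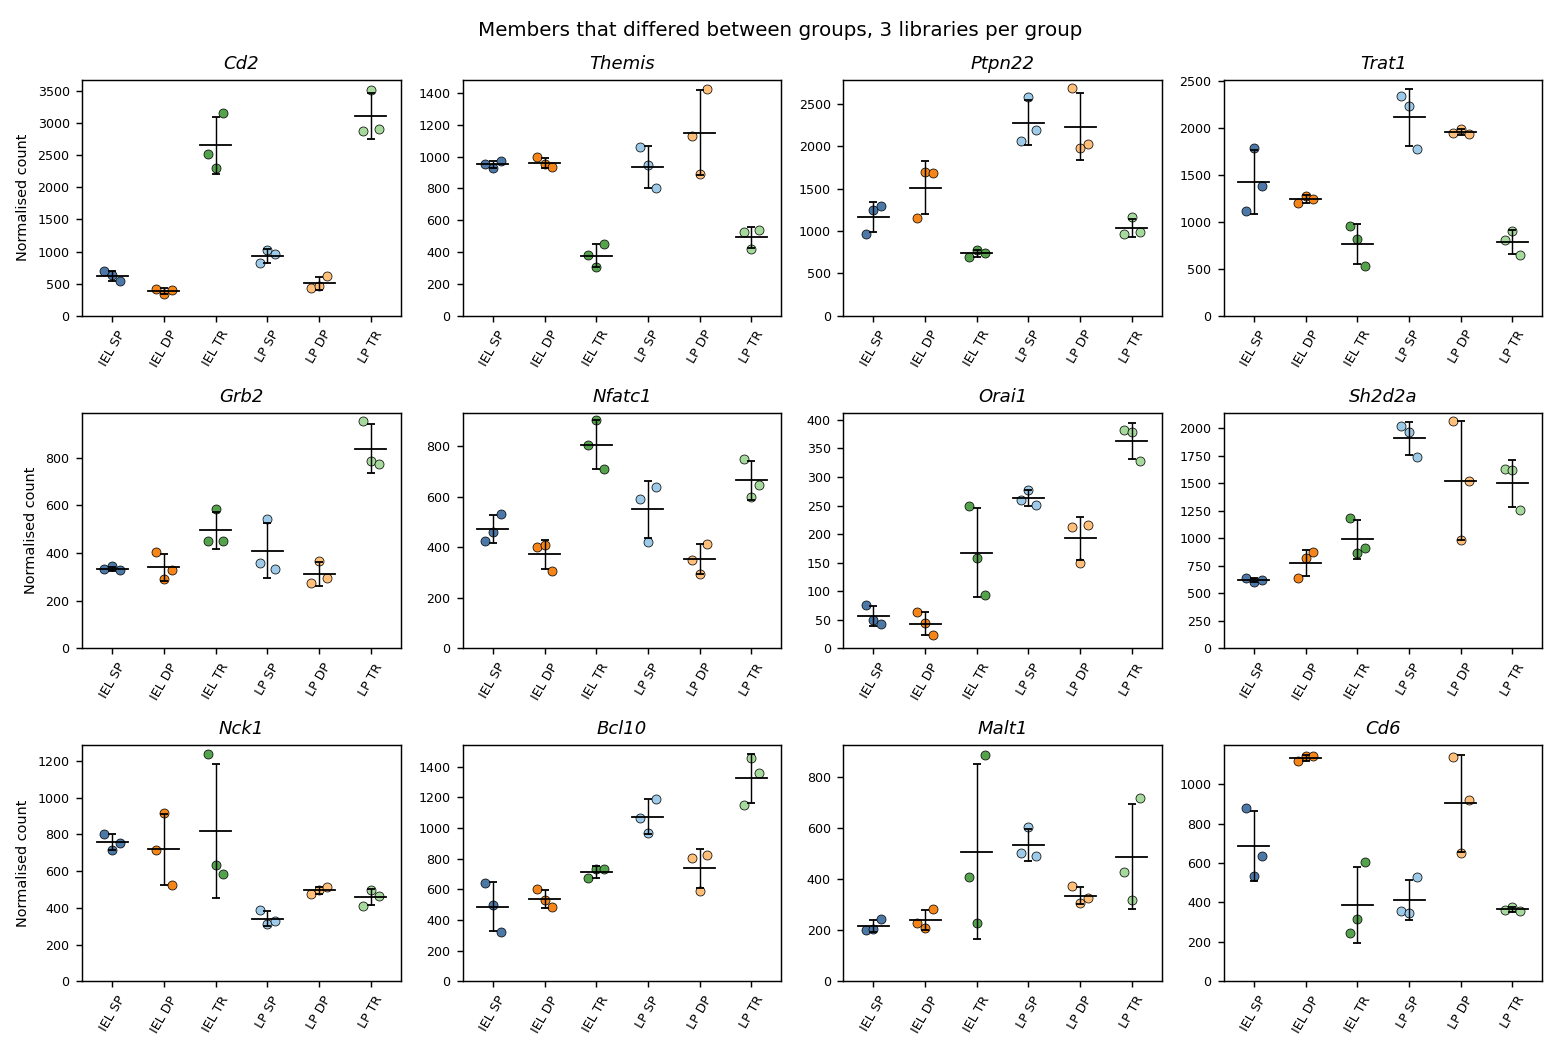
Normalised counts (vertical axes, from 0) of 12 members in each library of the 6 groups (horizontal axes), with lines at the group mean and bars of 1 SD. Cd2 is high in both TR groups, Themis and Ptpn22 are low there, and Orai1 is below 77 in all 6 IEL SP and IEL DP libraries and above 149 in all LP libraries.

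Among other pathway genes, 2 activating genes were lower in IEL SP than in LP SP, among them Pik3r1 (-1.24 ± 0.22, adjusted p = 0.00236 by limma), and 2 restraining genes were higher and 5 lower. Tnfaip3, which encodes A20, an enzyme that ends NF-κB signalling, averaged 1046 in IEL SP and 11057 in LP SP (-3.45 ± 0.22, adjusted p = 3.02e-07). The adaptor genes Sla2 (1.37 ± 0.17, adjusted p = 0.000172) and Sit1 (-1.40 ± 0.20, adjusted p = 0.000616) and the kinase gene Map4k1 (0.73 ± 0.17, adjusted p = 0.0149) followed. In IEL DP against LP DP, 2 activating genes were higher and 3 lower, and 3 restraining genes were higher and 5 lower. The activating genes included Pik3r1, which was lower (-1.41 ± 0.22, adjusted p = 0.00102), and the kinase gene Prkd2, which was higher (0.81 ± 0.20, adjusted p = 0.0218). The smallest p among the restraining genes were those of Tnfaip3 (-3.33 ± 0.22, adjusted p = 4.31e-07), Sla2 (1.18 ± 0.17, adjusted p = 0.000693), Itpkb (-1.08 ± 0.17, adjusted p = 0.00101) and Cish (1.49 ± 0.24, adjusted p = 0.00137).

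For Foxp3+ cells no member passed between the sites by limma, where 0.601% of all genes were called in IEL TR against LP TR (0.0323% higher and 0.569% lower). At an unadjusted p under 0.05 there were 8 of the 48 members, against 13.2% of all genes. edgeR called 0 and DESeq2 called 5, but the shares of all genes that these 2 methods called are not given here. Bcl10 had the smallest p, at 671, 734 and 735 in IEL TR and 1151, 1459.91 and 1362 in LP TR, without overlap (-0.89 ± 0.14, adjusted p = 0.07). Orai1 was at 249, 159 and 94.1 in IEL TR and 383, 379 and 328 in LP TR (-1.22 ± 0.37, adjusted p = 0.253), the same direction as in the other cell types but with a wide spread in IEL TR. Tnfaip3 was the other pathway gene that passed (-2.18 ± 0.18, adjusted p = 0.0205).

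Whether a difference between cell types depended on the site was tested directly. By limma no member passed for DP minus SP, epithelium minus lamina propria, and 0% of all genes were called. At an unadjusted p under 0.05 there were 6 of the 48 members, against 6.3% of all genes. No member passed for TR minus SP either, where 0.168% of all genes were called (0.11% higher and 0.0582% lower). There 3 of the 48 members had an unadjusted p under 0.05, against 8.56% of all genes. edgeR called 0 in both, and DESeq2 called 0 in the first and 1 in the second. That gene was Sh2d2a, for which TR minus SP was 0.65 ± 0.16 in the epithelium and -0.35 ± 0.21 in the lamina propria, a difference of 1.00 ± 0.21, adjusted p = 0.114 by limma and adjusted p = 0.00174 by DESeq2. It was at 1186, 865 and 915 in IEL TR, above IEL SP, and at 1627, 1617 and 1254 in LP TR, below LP SP. For Cd2 the same difference was 0.35 ± 0.22, adjusted p = 0.729, and for Themis -0.42 ± 0.24, adjusted p = 0.704.

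The 22 members that passed in no comparison by the main limma fits include the proximal kinases Lck and Zap70, the scaffolds Lat and Lcp2, and all of the downstream enzymes except Bcl10 and Malt1. DESeq2 called Cbl, Cd3d, Cd3e, Csk, Lat2, Nfatc3, Plcg1 and Ubash3b among them in at least 1 comparison, and limma under other settings also called Lck and Sos1. Phospholipase C gamma (Plcg1) averaged 499 in LP TR to 829.98 in IEL SP, the exchange factor Rasgrp1 745 in IEL DP to 1225 in LP SP, and Csk, which puts the inhibitory phosphate on Lck, 464 in LP DP to 820.17 in IEL TR. Tec, Txk and Sos1 were below 331 normalised counts in every library. Lat2, an adaptor better known from B and myeloid cells, had the widest spread of group means, a ratio of 15.2. It was at 44.9, 81.9 and 245 in IEL DP, 29.9, 22.1 and 105 in LP DP and 31.0, 14.9 and 82.3 in IEL SP, against 10.5, 2.24 and 11.6 in LP SP, 0, 20.6 and 7.84 in IEL TR and 1.08, 9.95 and 23.1 in LP TR. Library 3 was the highest in 5 of the 6 groups, 36.3% of the exon bases of the gene are shared with Rfc2, and its differences did not pass the main limma test (2.44 ± 0.95, adjusted p = 0.383 for LP DP minus LP SP). It was called higher in IEL DP than in IEL TR by DESeq2 (adjusted p = 0.0262) and by limma with all 18 libraries sharing 1 variance (adjusted p = 0.0274). The summed B-cell markers were 69.8 to 90.8 in IEL DP and 50.97 to 97.0 in the other SP and DP groups.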

How the data were processed

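Small-intestinal CD4 T cells of 6 groups with 3 libraries each were profiled by RNA sequencing. The deposited signal values are normalised read counts per gene, made by the authors; per the submitters' processing notes TopHat, HTSeq and mm10 were used, and the versions are not given in the sources used here. In each library the deposited values were whole multiples of 1 step (100% of values within 0.1 step), from which whole read counts were recovered. The library kit named in the labels' protocols does not mark strand.

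Genes with at least 10 normalised counts in at least 3 of 18 libraries were tested on log2(value + 1) with limma 3.58.1 (R 4.3.3, trend and robust moderation), with Benjamini-Hochberg adjustment over all 15472 genes and a threshold of 0.05. Differences are first group minus second ± SE and understate the change of genes with low values. IEL TR was fitted with only its partner group (6 libraries, or 12 libraries of 4 groups for the difference of differences), and the other groups together (15 libraries). edgeR 4.0.16 (quasi-likelihood) and DESeq2 1.42.0 were run on the recovered reads as alternatives, beside other pseudocounts, filters, scalings, variance models, a block for the library number and leaving out each library. The code was tested on simulated data. Gene lengths and positions come from GENCODE release M21 (36639 of 38392 identifiers matched) and promoters from RefSeq (GRCm38.p6).

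The members and all gene lists were chosen with earlier results of these data known. Named are 10 receptor, kinase and scaffold genes throughout, members past the threshold (the 15 largest changes where there were more), and, of the other pathway genes past it, the 4 with the smallest p in each list, some of which are not reported here. Promoter motifs, the Cd3g to Cd3d ratio and the members with levels only were chosen after the values were seen. Precision is set by 3 libraries per group and 5093955 to 8851347 reads each.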

Additional observations from a re-analysis of the deposited data

How the results depend on the processing

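Of 55 calls of members, 23 held under every alternative and 32 were lost under at least 1. No named difference changed direction where it was called in the main or the alternative fit. Changes of direction between fits that both made no call were not counted. The counts of called members moved by more than 1.5 times as follows, and the causes were not tested except where fewer libraries were fitted. The shares of all genes called under the alternative settings are not given here, so these counts are not set against a background. With all 18 libraries sharing 1 variance, the counts were 1 (LP DP against LP SP), 6 (IEL SP against LP SP), 11 (IEL TR against IEL SP), 17 (IEL DP against IEL TR) and 3 (IEL TR against LP TR). With a variance weight per group they were 6 and 9 for IEL TR against IEL SP and IEL DP against IEL TR. On the libraries of the 2 groups alone they were 0 for LP DP against LP SP, 7 for LP TR against LP SP and 7 for IEL SP against LP SP. Without a filter they were 1 for IEL TR against IEL SP and 0 for IEL DP against IEL TR. IEL DP against LP DP gave 7 at a minimum of 50, 7 with quantile normalisation and 8 with equal totals, and IEL DP against IEL TR gave 7 with quantile normalisation. DESeq2 called 1 member in IEL DP against IEL SP, 12 in IEL DP against LP DP, 12 in IEL TR against IEL SP, 14 in IEL DP against IEL TR, 5 in IEL TR against LP TR (Cd3d, Grb2, Bcl10, Ptpn22 and Rasa1) and 1 for the difference of TR minus SP between sites. Equal totals shifted the median of all genes by -0.143 in IEL TR minus IEL SP and by 0.18 in IEL DP minus IEL TR. There the split of called members became 1 higher and 2 lower and 2 higher and 1 lower, and with quantile normalisation 5 higher and 2 lower for the second.

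Leaving out 1 library gave 0 to 2 called members in LP DP against LP SP, 8 to 12 in LP TR against LP SP, 12 to 20 in LP DP against LP TR, 8 to 13 in IEL SP against LP SP, 2 to 6 in IEL DP against LP DP, 0 to 5 in IEL TR against IEL SP, and 1 to 4 in IEL DP against IEL TR. The labels do not say whether a library number marks a shared animal or day. Over 45 pairs of same-numbered libraries from different groups, the correlation of deviations from the group mean was 0.00053 to 0.0887 (median 0.0385). All 18 libraries were most like their own number, and the main fits do not take a pairing by number into account. A replicate block gave 7 called members in IEL DP against LP DP, 0 in IEL TR against IEL SP, 1 in IEL DP against IEL TR, 15 in LP TR against LP SP, 21 in LP DP against LP TR, 14 in IEL SP against LP SP and 2 in LP DP against LP SP, and 0 in the other comparisons. These counts, too, are not set against the share of all genes called.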
